A study of Homo sapiens with 3 samples.

Results

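Metallothioneins and the zinc transporters measured beside them were followed as 9 genes: the metallothioneins MT2A, MT1X, MT1E, MT1F, MT1G and MT1M, the exporter SLC30A1, and the importers SLC39A6 and SLC39A10. They were taken by name, without regard to their values, from the 33423 gene names with a row in at least 1 of the 3 count files. 8 of the 9 had such a row. MT1M had none, so it stood at 0 UMIs (unique molecular identifiers, each marking 1 captured mRNA molecule) in every library. MT1E had rows for both VCaP libraries and none for LNCaP–ENZ168.

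Drop-seq, in which single cells are caught in droplets with barcoded beads, was used on 2 prostate cancer cell lines that the labels call sensitive to enzalutamide, an antiandrogen drug. LNCaP is a line from a lymph node metastasis, and VCaP is a line from a vertebral metastasis that carries the TMPRSS2–ERG fusion. VCaP parental cells received 0.1% DMSO for 48 h, VCaP–ENZ48 cells received 10 µM enzalutamide for 48 h, and LNCaP–ENZ168 cells received 10 µM enzalutamide for 168 h. Both lines were grown with fetal bovine serum, in different basal media, and no untreated LNCaP library was analysed here. Each group was 1 library, so no difference between groups has a replicate check, and every interval given below covers counting error only.

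Metallothioneins are small cysteine-rich proteins that bind zinc and copper and buffer their free levels in the cell. When zinc rises, the transcription factor MTF1 binds metal response elements in metallothionein promoters and in that of SLC30A1, which pumps zinc out across the plasma membrane, whereas the SLC39A proteins bring zinc into the cytosol. The normal prostate secretes zinc-rich fluid and holds much zinc in its luminal cells, and prostate cancer cells are known to hold less. Metallothionein genes also respond to glucocorticoids and to stress. Their names begin with MT1 or MT2 and have nothing to do with the MT- prefix of transcripts made in mitochondria.

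The promoter windows of the family show the metal response element directly and are given because MT2A and MT1X moved alike in both comparisons between libraries. RefSeq's promoter table, on GRCh38.p14, held a window for 5 of the 9 genes, MT2A, MT1X, SLC30A1, SLC39A6 and SLC39A10, and none for MT1E, MT1F, MT1G and MT1M. The 250 bases before the start were searched on both strands for the core of the element, spelled TGCACNC or TGCGCNC, and for TGTTCT, a hexamer that steroid receptors bind. In the sequences below, written 5′ to 3′ on the strand of the gene, capitals mark each match to the core on either strand. The windows lie at chr16:56608334-56608583 (+) for MT2A, chr16:56682220-56682469 (+) for MT1X and chr1:211579162-211579411 (-) for SLC30A1.

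MT2A: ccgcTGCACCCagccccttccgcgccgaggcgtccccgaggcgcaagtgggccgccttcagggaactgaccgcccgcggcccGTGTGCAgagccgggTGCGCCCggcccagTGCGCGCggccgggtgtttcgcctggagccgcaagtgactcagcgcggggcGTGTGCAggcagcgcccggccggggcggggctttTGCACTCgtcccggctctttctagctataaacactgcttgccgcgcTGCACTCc

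MT1X: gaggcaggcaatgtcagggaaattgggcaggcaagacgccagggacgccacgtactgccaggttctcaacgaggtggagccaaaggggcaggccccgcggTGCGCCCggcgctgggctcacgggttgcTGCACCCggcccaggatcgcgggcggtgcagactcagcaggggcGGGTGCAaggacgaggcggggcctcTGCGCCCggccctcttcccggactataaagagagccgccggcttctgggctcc

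SLC30A1: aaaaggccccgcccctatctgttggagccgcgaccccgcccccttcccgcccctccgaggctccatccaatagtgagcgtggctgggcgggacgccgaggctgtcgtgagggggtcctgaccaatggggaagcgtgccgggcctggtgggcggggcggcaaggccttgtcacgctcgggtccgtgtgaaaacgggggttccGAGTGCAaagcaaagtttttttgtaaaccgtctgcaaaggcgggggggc

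The MT2A window held 7 matches in 7 separate stretches, and the MT1X window held 4. The windows of MT1H, MT1B and MT4, genes of the family with 0 to 2 UMIs in any library, held 8, 3 and 3. SLC30A1 and SLC39A6 held 1 match each, and SLC39A10 held 0. RefSeq's start for SLC39A10 puts its window at chr2:195656708-195656957, inside the Gencode span given below, and the SLC39A6 window also reaches into its Gencode span, so these counts refer to RefSeq's starts. Of all 35116 windows in the table, 24.8% held at least 1 match, 1.58% held at least 3 and 0.120% held at least 5. TGTTCT had 0 matches in each of the 5 windows and was present in 12.4% of all windows. At that share, 0 matches in 5 windows are nothing unusual. Sites farther out or spelled otherwise were not searched, so these genes may still have steroid receptor sites. These are letter matches and do not show that a factor was bound.

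The 3 libraries differed in depth, which sets how firmly each value can be read. Cells were kept at 300 genes or more, 500 UMIs or more and at most 25% mitochondrial UMIs, which left 944 LNCaP–ENZ168, 997 VCaP parental and 947 VCaP–ENZ48 cells of 1000 barcodes each. They held 6313283, 19515202 and 14301287 UMIs, with medians of 5389, 17817 and 11224 per cell. Barcodes that ended in the letter N in place of a base made up 212, 860 and 869 of each 1000. The sources used here do not say why. Each pair of libraries shared 1 barcode. ERG, which marks VCaP, had 0, 2052 and 816 UMIs in that order, and the luminal keratins KRT8 and KRT18 were at 98.4 to 460 UMIs per 1000000 (CPM) in the 3 libraries, so the labelled lines fit their markers. Of 4 immune, 3 basal and 6 stromal or endothelial markers, LUM alone reached a mean of 10 CPM, at 21.0 CPM in VCaP parental, 25.2 CPM in VCaP–ENZ48 and 0.317 CPM in LNCaP–ENZ168. Doublets were not identified, and free RNA was not measured.

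MT2A, the metallothionein expressed most broadly in human tissues, was the leading metallothionein in all 3 libraries. Its level was 639 CPM in VCaP parental (95% Poisson interval 628 to 650, 12471 UMIs), 276 CPM in VCaP–ENZ48 (268 to 285, 3952 UMIs) and 57.7 CPM in LNCaP–ENZ168 (51.9 to 63.9, 364 UMIs). The 3 intervals did not overlap. MT2A lies on chromosome 16 at 56608584 to 56609497 on the forward strand of GRCh38 (Gencode 44), and the other MT1 genes follow it within the same cluster.

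MT1E, at 56625475 to 56627112, had the second level of the family in VCaP and no molecule in LNCaP–ENZ168. It stood at 422 CPM in VCaP parental (413 to 431, 8234 UMIs) and 206 CPM in VCaP–ENZ48 (198 to 213, 2943 UMIs). The 0 UMIs in LNCaP–ENZ168 allow a level of up to 0.475 CPM, the level that 3 UMIs would give there. Against that floor, MT1E was at least 433-fold lower in CPM in LNCaP–ENZ168 than in VCaP–ENZ48.

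MT1X, at 56682470 to 56684196, followed the order of MT2A at a lower level. It had 135 CPM in VCaP parental (130 to 141, 2642 UMIs), 57.5 CPM in VCaP–ENZ48 (53.7 to 61.6, 823 UMIs) and 14.6 CPM in LNCaP–ENZ168 (11.7 to 17.9, 92 UMIs). MT1F, at 56657731 to 56660698, was low throughout, at 13.3 CPM (11.8 to 15.04), 8.32 CPM (6.89 to 9.96) and 7.13 CPM (5.20 to 9.54) in the same order, and the intervals of the 2 treated libraries overlapped.

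MT1G was the metallothionein whose order of libraries was turned. This gene, on the reverse strand at 56666730 to 56668065, had 32 UMIs in LNCaP–ENZ168, 25 in VCaP parental and 10 in VCaP–ENZ48. That gave 5.07 CPM (3.47 to 7.16), 1.28 CPM (0.829 to 1.89) and 0.699 CPM (0.335 to 1.29), and the 2 VCaP intervals overlapped. LNCaP–ENZ168 thus had the lowest MT2A, MT1E and MT1X and the highest MT1G. For MT1M, at 56632659 to 56633981, 0 UMIs allow up to 0.475 CPM in LNCaP–ENZ168, 0.154 CPM in VCaP parental and 0.210 CPM in VCaP–ENZ48.

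**Figure D1:**
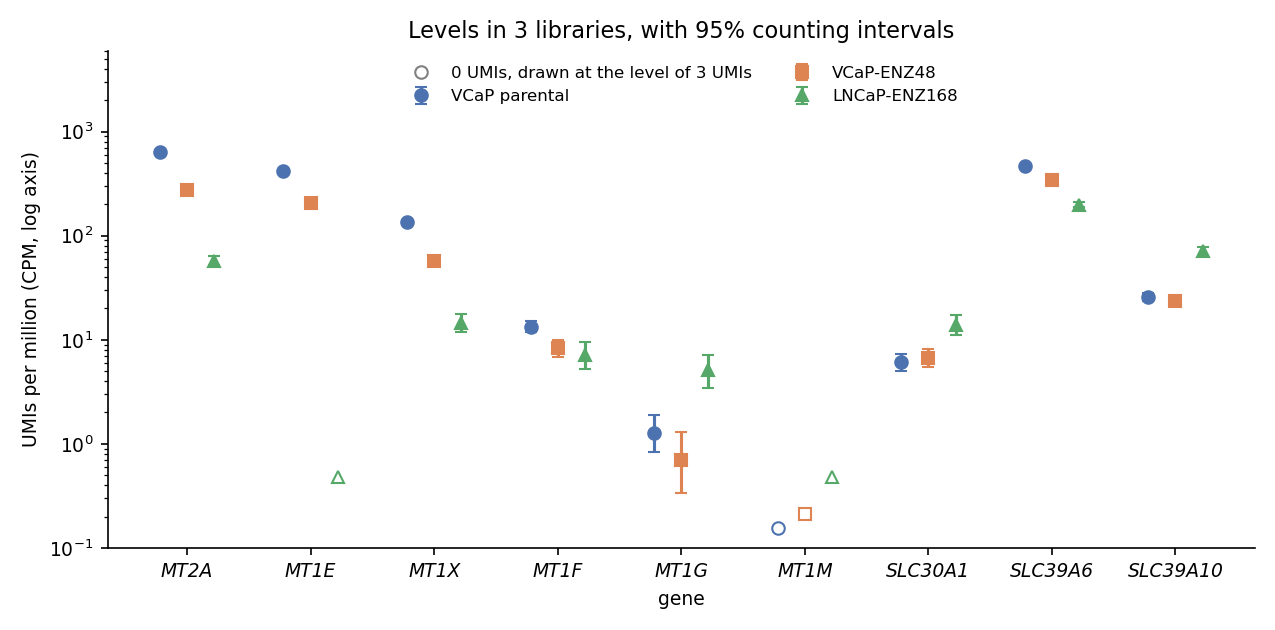
Level of each gene (x axis) in CPM on a log axis (y axis) in VCaP parental (circles), VCaP–ENZ48 (squares) and LNCaP–ENZ168 (triangles), with 95% Poisson intervals, and open symbols for 0 UMIs drawn at the level of 3 UMIs. MT2A, MT1E and MT1X step down from VCaP parental to VCaP–ENZ48 to LNCaP–ENZ168, whereas MT1G, SLC30A1 and SLC39A10 are highest in LNCaP–ENZ168.

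Taken as a sum, the 6 metallothioneins made up 1211 CPM in VCaP parental (1196 to 1226, 23632 UMIs), 549 CPM in VCaP–ENZ48 (537 to 561, 7847 UMIs) and 84.4 CPM in LNCaP–ENZ168 (77.4 to 91.9, 533 UMIs). How reads shared by these near-identical genes were divided among them does not change the sum, but may change the value of a single MT1 gene, and reads discarded or given to a pseudogene would change both. Within the sum, the composition was alike in the VCaP libraries. MT2A gave 52.8% and MT1E 34.8% of metallothionein UMIs in VCaP parental, and 50.4% and 37.5% in VCaP–ENZ48. Each UMI counts 1 tagged 3′ end, so these shares were not divided by gene length. In LNCaP–ENZ168, MT2A gave 68.3% (exact binomial interval 64.2 to 72.2), MT1X 17.3%, MT1F 8.44%, MT1G 6.004% and MT1E 0 of 533 UMIs.

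The rest of the cluster was nearly silent apart from 2 neighbours. MT1L, a transcribed pseudogene between MT2A and MT1E, had 228 UMIs in VCaP parental, 135 in VCaP–ENZ48 and 0 in LNCaP–ENZ168, the order of MT1E. MT3, a metallothionein best known from brain, had 360, 217 and 7 UMIs. MT1A had 15, 11 and 0 UMIs, MT1H 2, 1 and 0, and MT4 1, 0 and 0, and MT1B had 0 in all 3. In LNCaP–ENZ168 the genes MT1L, MT1E, MT1M, MT1A and MT1B, which follow each other in chromosomal order, had 0 UMIs. The pseudogene MT1DP among them had 8 UMIs. MT2A on one side and MT1F, MT1G and MT1X on the other had between 32 and 364, but MT1H, between MT1G and MT1X, had 0. MT1M and MT1B had 0 UMIs in every library and MT1A had few in VCaP, so only MT1L and MT1E clearly set LNCaP–ENZ168 apart in this stretch.

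**Figure D2:**
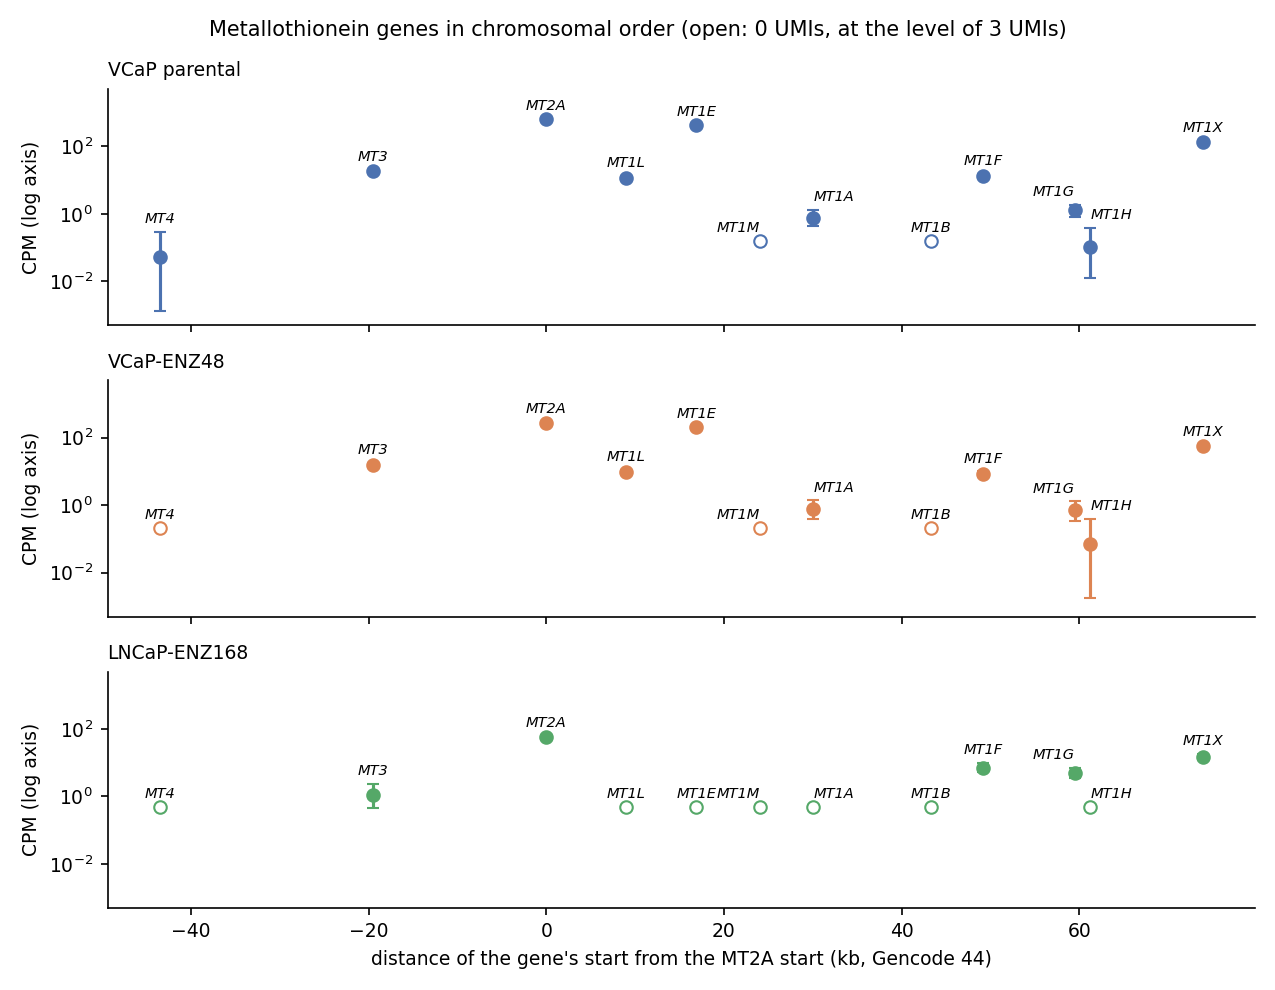
Metallothionein genes of the chromosome 16 cluster by distance of their start from the MT2A start in kilobases (x axis) against CPM on a log axis (y axis), 1 panel a library, with 95% Poisson intervals and open circles for 0 UMIs drawn at the level of 3 UMIs. In LNCaP–ENZ168 the plotted genes from MT1L to MT1B are all open circles, between MT2A at 57.7 CPM and MT1F at 7.13 CPM. MT1H and MT4 are open there too, and MT1M and MT1B are open in every panel.

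Of the 3 transporters followed, SLC39A6 (ZIP6, also known as LIV-1) had the most UMIs in every library. This plasma membrane zinc importer, on chromosome 18 at 36108531 to 36129385 on the reverse strand, had 466 CPM in VCaP parental (456 to 476, 9094 UMIs), 344 CPM in VCaP–ENZ48 (334 to 354, 4919 UMIs) and 198 CPM in LNCaP–ENZ168 (187 to 209, 1248 UMIs). The order was that of MT2A, but the spread was smaller.

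SLC39A10 (ZIP10), the close relative of SLC39A6, had the opposite order between lines. It lies on chromosome 2 at 195575977 to 195737702 on the forward strand. Its level was 71.0 CPM in LNCaP–ENZ168 (64.5 to 77.8, 448 UMIs), 26.0 CPM in VCaP parental (23.8 to 28.3, 507 UMIs) and 23.6 CPM in VCaP–ENZ48 (21.2 to 26.3, 338 UMIs), and the VCaP intervals overlapped.

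SLC30A1 (ZnT1), the zinc exporter on chromosome 1 at 211571568 to 211579161 on the reverse strand, was scarce. It had 13.9 CPM in LNCaP–ENZ168 (11.2 to 17.2, 88 UMIs), 6.05 CPM in VCaP parental (5.00 to 7.24, 118 UMIs) and 6.71 CPM in VCaP–ENZ48 (5.44 to 8.20, 96 UMIs). The VCaP libraries did not differ beyond counting error. SLC30A1 therefore did not share the order of MT2A and MT1X.

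The first comparison asked what 48 h of enzalutamide went along with in VCaP cells. Ratios of CPM + 1 were set relative to the median of all genes with a mean of 10 CPM or more, and a relative log2 ratio of 1 or more in size was taken as past the fold. The intervals are those of the CPM ratio without the added 1. The median log2 ratio over 7729 genes was -0.07. Of the 9 genes, 6 reached the minimum, 0 were higher past the fold and 2 were lower, against 8.97% of all genes higher and 6.03% lower. The 2 were MT2A, at -1.14 (-1.19 to -1.09), and MT1X, at -1.15 (-1.28 to -1.05). In CPM they stood at 43.2% and 42.5% of the parental level.

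MT1E was just short of the fold, at -0.97 (-1.03 to -0.91), or 48.8% of the parental level, and the summed metallothioneins were at -1.07 (-1.11 to -1.04). MT1F was at -0.55 (-0.94 to -0.29). The zinc importers SLC39A6, at -0.37 (-0.42 to -0.32), and SLC39A10, at -0.06 (-0.27 to 0.13), were nearer to the median gene, and the median of the 6 was -0.76. MT1G and SLC30A1 were below the minimum level, and the intervals of both ratios held 0.

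Because 3 metallothioneins lay this close to the fold, the count moved with the setting although the direction of the sum did not. With a minimum of 50 CPM, which shifted the reference median to -0.23, 0 genes were past the fold, MT2A was at -0.97 and MT1X at -0.99. Among barcodes that ended in a base, only 138 parental and 127 treated cells, MT2A was at -1.02 and MT1X at -0.95. Cells in which at most 0.179% of UMIs came from S and G2M genes numbered 12 in VCaP parental and 474 in VCaP–ENZ48, and between these the sum was at -0.95, MT2A at -0.996 and MT1X at -1.42. SLC30A1, at 0.20 over all kept cells, turned to -1.02 there, so that the count stayed at 2 with SLC30A1 in place of MT2A. Between cells of 10000 to 20000 UMIs in both libraries, 548 parental and 282 treated, the sum was at -1.30.

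Of 11 zinc exporters listed, 5 reached the minimum, with 1 higher and 0 lower, where 8.97% of all genes were higher and 6.03% lower, and a median of 0.17. The 1 was SLC30A4 (ZnT4), which loads zinc into secretory vesicles, at 59.4 CPM in VCaP parental and 115 CPM in VCaP–ENZ48, or 1.01 (0.91 to 1.13) on the relative log2 scale. Of 14 zinc importers, 8 reached it, with 1 higher and 0 lower against the same shares of all genes, and a median of -0.07. The 1 was SLC39A1 (ZIP1), the importer most often named in prostate, at 12.04 CPM and 24.2 CPM in the same order, or 1.02 (0.83 to 1.32).

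Short of the fold, SLC39A3 was at -0.46 (-0.72 to -0.26) and SLC39A14 at -0.37 (-0.67 to -0.13). Going the other way, SLC30A7 was at 0.30 (0.05 to 0.59), SLC30A5 at 0.17 (0.02 to 0.33) and SLC39A7 at 0.10 (0.01 to 0.19). SLC39A4, at 0.03, SLC30A6, at -0.10, SLC30A9, at -0.06, and SLC39A9, at -0.07, had intervals that held 0. Below the minimum level, SLC39A8 (ZIP8) had 63 UMIs in VCaP parental and 4 in VCaP–ENZ48, and SLC39A2 had 0 and 23 UMIs. MT1L and MT3 were at -0.21 (-0.56 to 0.07) and -0.20 (-0.47 to 0.03), so the intervals of both held 0. MTF1, the zinc sensor, had 7.89 and 10.6 CPM and fell below the minimum mean. NR3C1, the glucocorticoid receptor, had 64 and 78 UMIs.

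**Figure D3:**
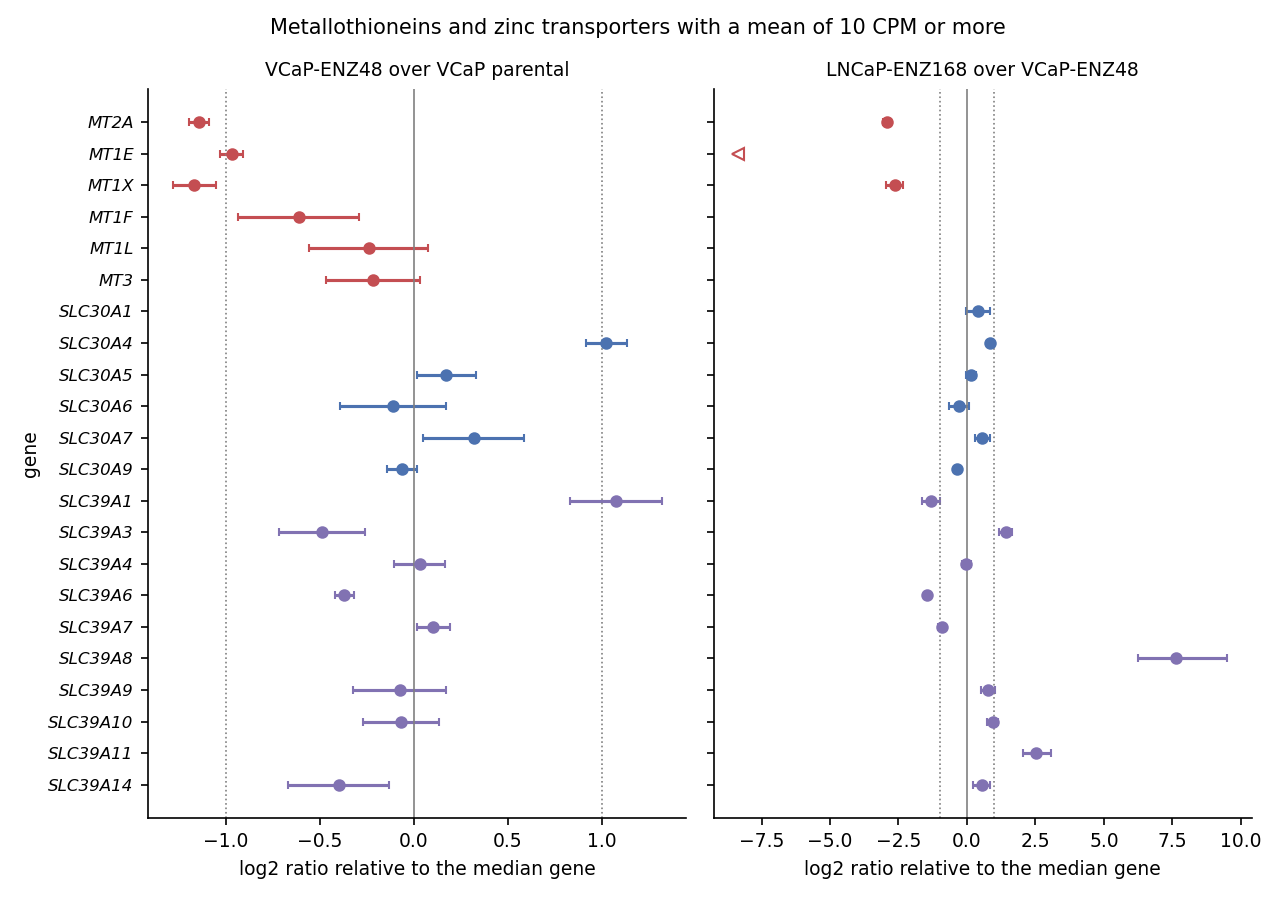
Log2 ratio of CPM relative to the median gene (x axis), without the added 1, for metallothioneins (red), SLC30A exporters (blue) and SLC39A importers (purple) that had a mean of 10 CPM or more in each comparison, with 95% counting intervals, a solid line at 0 and dotted lines at 1 and -1. MT2A and MT1X lie past -1 in both panels, and the open triangle is MT1E, which had 0 UMIs in LNCaP–ENZ168 and is drawn with the added 1 at -8.35.

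The second comparison set the 2 treated libraries side by side, LNCaP–ENZ168 over VCaP–ENZ48. Cell line, culture medium, treatment time and library differ together there and cannot be told apart. The median log2 ratio over 8854 genes was 0.65, so relative values are lower than plain ones by that amount. Of the 9 genes, 6 reached the minimum, with 0 higher and 4 lower past the fold, against 15.2% of all genes higher and 18.6% lower. The 4 were MT1E, MT2A at -2.90 (-3.07 to -2.76), MT1X at -2.57 (-2.96 to -2.32) and SLC39A6 at -1.45 (-1.54 to -1.36).

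The summed metallothioneins were at -3.34 (-3.48 to -3.23), or 15.4% of the VCaP–ENZ48 level in CPM. The fitted -8.35 of MT1E rests on the added 1 and is no bound. It is the lowest of the 6 whatever bound is used, so the median of the 6, -2.01, does not turn on it. SLC39A10 was at 0.89 (0.72 to 1.14) and SLC30A1 at 0.30 (-0.03 to 0.83). MT1G, below the minimum, was at 1.18 (1.14 to 3.39) with 32 and 10 UMIs. With 0.1 or 5 added in place of 1, MT1G was at 2.02 or 0.24, so the size of this ratio rests on the added value.

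Of 10 importers above the minimum in this comparison, 3 were higher and 2 lower, with a median of 0.59, and of 6 exporters 0 were past the fold in either direction, with a median of 0.21, where 15.2% of all genes were higher and 18.6% lower. SLC39A8, which carries zinc, manganese and cadmium, had 548 UMIs (86.8 CPM) in LNCaP–ENZ168 and 4 UMIs (0.280 CPM) in VCaP–ENZ48. SLC39A11 was at 2.16 with 26.8 and 2.94 CPM, and SLC39A3 at 1.35 with 70.2 and 16.7 CPM. SLC39A1 was lower, at -1.28, beside SLC39A6. SLC30A4 reached 325 CPM in LNCaP–ENZ168, at 0.83, and MTF1 29.5 CPM, at 0.73, both short of the fold.

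Single cells showed how the molecules were spread. To compare libraries of unequal depth, each cell was thinned at random to 2000 UMIs, which left out 1 LNCaP–ENZ168 and 30 VCaP–ENZ48 cells. At least 1 metallothionein UMI was then found in 83.8% of VCaP parental cells (exact binomial interval 81.3 to 86.0), 54.0% of VCaP–ENZ48 cells (50.7 to 57.2) and 13.3% of LNCaP–ENZ168 cells (11.2 to 15.6). Without thinning the shares were 99.8%, 86.9% and 33.3%. These are shares of cells with a molecule captured, not of cells that express the genes, and no cell type that should lack them was present to measure the background.

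By gene, MT2A was found in 62.7%, 33.7% and 9.76% of thinned cells and MT1E in 51.4%, 29.4% and 0%, in the order VCaP parental, VCaP–ENZ48, LNCaP–ENZ168. Finding MT1E in 0 of 943 cells allows a share of up to 0.318%. MT1X was found in 21.4%, 9.92% and 2.65%. SLC39A6 was found in 59.5%, 46.8% and 33.4%, while SLC39A10 was found in 4.51% and 5.02% of VCaP cells and in 14.4% of LNCaP–ENZ168 cells. MT1F, MT1G and SLC30A1 were each found in at most 3.01% of cells of any library.

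The variance over the mean was higher for the summed metallothioneins than for the importer SLC39A6 in each library. The variance of the summed metallothionein UMIs was 2.36 times the mean in VCaP parental and 2.41 times the mean in VCaP–ENZ48, where SLC39A6 had 1.06 and 1.19 times. In LNCaP–ENZ168 the sum had 1.20 times and SLC39A6 1.08 times. The 10% of cells with most metallothionein UMIs held 30.5% of them in VCaP parental and 42.5% in VCaP–ENZ48, and the highest cell had 27 and 24 of its 2000 UMIs in them, against medians of 2 and 1. In LNCaP–ENZ168 the highest cell had 4, and the top 10% of cells held 79.5%. The mean count was 2.44 in VCaP parental, 1.02 in VCaP–ENZ48 and 0.155 in LNCaP–ENZ168. The variance over the mean and the share held by the top 10% both depend on that mean, so neither ranks the libraries by unevenness. Cells at 0 made up 16.2% and 46.0% of VCaP parental and VCaP–ENZ48 cells, above the 8.69% and 36.0% that a Poisson distribution with the same mean would hold.

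**Figure D4:**
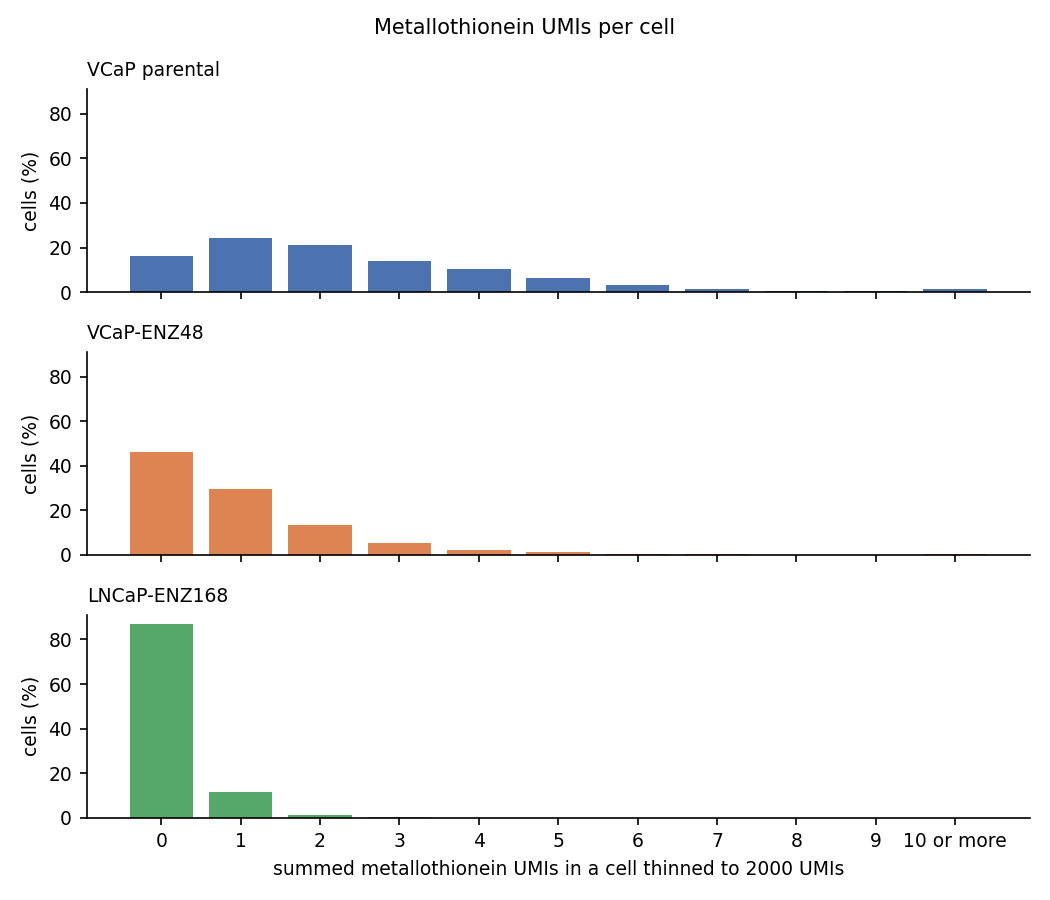
Share of cells in percent (y axis) by the number of metallothionein UMIs, summed over the family members, in a cell thinned to 2000 UMIs (x axis), 1 panel a library. Cells at 0 make up 16.2% in VCaP parental, 46.0% in VCaP–ENZ48 and 86.7% in LNCaP–ENZ168, and VCaP parental has a tail of cells at 10 or more.

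Co-expression was weak at this depth and is given as a description across cells of 1 library, which share its depth and capture. The correlation of log2(1 + UMI) between MT2A and MT1E was 0.21 over 997 VCaP parental cells and 0.22 over 917 VCaP–ENZ48 cells. Thinning to 10000 UMIs, chosen after the first values were seen and possible for 919 and 524 cells, gave 0.42 and 0.40 for MT2A with MT1E. At that depth MT2A with MT1X gave 0.27 and 0.29, and MT1X with MT1E gave 0.33 and 0.26. MT2A with SLC39A6 stayed near 0, at -0.01 and -0.03. Thinned to 2000 UMIs, MT2A with MT1X gave 0.05 in VCaP parental and 0.20 in VCaP–ENZ48, and MT1X with MT1E gave 0.11 and 0.19. MT1X was found in only 9.92% of these VCaP–ENZ48 cells. Another thinning seed at 2000 UMIs gave 0.11 and 0.13 for MT2A with MT1X, and 0.10 and 0.06 for MT1X with MT1E. At 2000 UMIs no metallothionein was found in 10% of LNCaP–ENZ168 cells, the share set for a pair to be computed, and SLC39A6 with SLC39A10 had 0.04 there.

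The genes most alike to the summed metallothioneins in pattern over thinned cells differed between libraries, and all r values were small. In LNCaP–ENZ168 they were PTTG1 (securin, a mitotic protein) at 0.18, COX6B1 at 0.18, HMGB2 at 0.18, RPL18 at 0.16 and POLR2F at 0.16 among 3637 genes. In VCaP parental they were the iron storage gene FTH1 at 0.13, ADIRF at 0.12, HSP90B1 at 0.12, HMGN2 at 0.11 and SEM1 at 0.11 among 2793 genes. In VCaP–ENZ48 they were RPL41 at 0.21, ATP5F1E at 0.20, RPS15 at 0.20, RPL31 at 0.19 and ATP5ME at 0.18 among 2500 genes, that is, ribosomal protein and ATP synthase genes.

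Cells were also ranked by the share of their UMIs from 97 S and G2M genes, and the upper 25% were set beside the lower 25% within each library. These 2 classes are ranges of a score and not cell types, and 52 to 183 cells lay within 10% of an edge. They are not the same cells in kind across libraries. The upper 25% began at 2.23% of UMIs in VCaP parental but at 0.240% in VCaP–ENZ48 and 0.513% in LNCaP–ENZ168, and the lower 25% of VCaP parental ended at 0.380%.

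MT2A was higher in the upper 25% of every library, least so in VCaP parental. In LNCaP–ENZ168 it had 122 CPM (205 UMIs) in the upper and 28.8 CPM (46 UMIs) in the lower 25%, a log2 ratio of 2.04 (1.61 to 2.57). A MT2A UMI was found in 22.5% of thinned cells of the upper 25% (17.3 to 28.3) and in 4.24% of cells of the lower 25% (2.05 to 7.65). In VCaP–ENZ48 the levels were 408 and 220 CPM, a log2 ratio of 0.89 (0.76 to 1.03), with MT2A found in 42.3% and 30.6% of thinned cells. That ratio was 0.95 with S genes alone, 0.61 with G2M genes alone, 0.69 for the upper and lower 33% and 0.58 with cells weighted equally. Among the 31 and 31 cells per class whose barcodes ended in a base it was 0.41. In VCaP parental the levels of MT2A were close, at 688 and 612 CPM, a log2 ratio of 0.17 (0.10 to 0.24). MT2A was found there in 65.1% and 57.4% of thinned cells, and the ratio was 0.04 with S genes alone.

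MT1X did the reverse in VCaP parental. There it had 86.5 CPM (452 UMIs) in the upper and 195 CPM (857 UMIs) in the lower 25%, a log2 ratio of -1.16 (-1.34 to -1.01), and was found in 13.7% and 26.1% of thinned cells. The ratio was -0.90 with S genes alone and -1.17 with G2M genes alone. In VCaP–ENZ48 MT1X had 71.7 and 57.0 CPM, a log2 ratio of 0.33 (0.04 to 0.62), which became -0.10 with G2M genes alone and -0.84 among the 31 and 31 cells per class whose barcodes ended in a base.

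Across the sum, the upper over lower log2 ratio was 1.45 (1.11 to 1.83) in LNCaP–ENZ168, -0.11 (-0.17 to -0.06) in VCaP parental and 0.64 (0.55 to 0.74) in VCaP–ENZ48. MT1E was at -0.20 in VCaP parental and 0.43 in VCaP–ENZ48. SLC39A6 was at -0.02, -0.27 and 0.11 in LNCaP–ENZ168, in the parental library and in VCaP–ENZ48, and SLC39A10 at -0.49 (-0.90 to -0.10), 0.44 (0.10 to 0.82) and -0.20 (-0.73 to 0.30). In the parental library SLC39A10 turned to -0.11 with S genes alone, and SLC39A6 turned to 0.045 among the 34 and 34 cells per class whose barcodes ended in a base. Median depth was 5676 and 5324 UMIs in the upper and lower 25% of LNCaP–ENZ168, 18919 and 16125 in VCaP parental, and 8168 and 10467 in VCaP–ENZ48. The part of depth in these differences was not tested beyond the thinned shares given above.

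**Figure D5:**
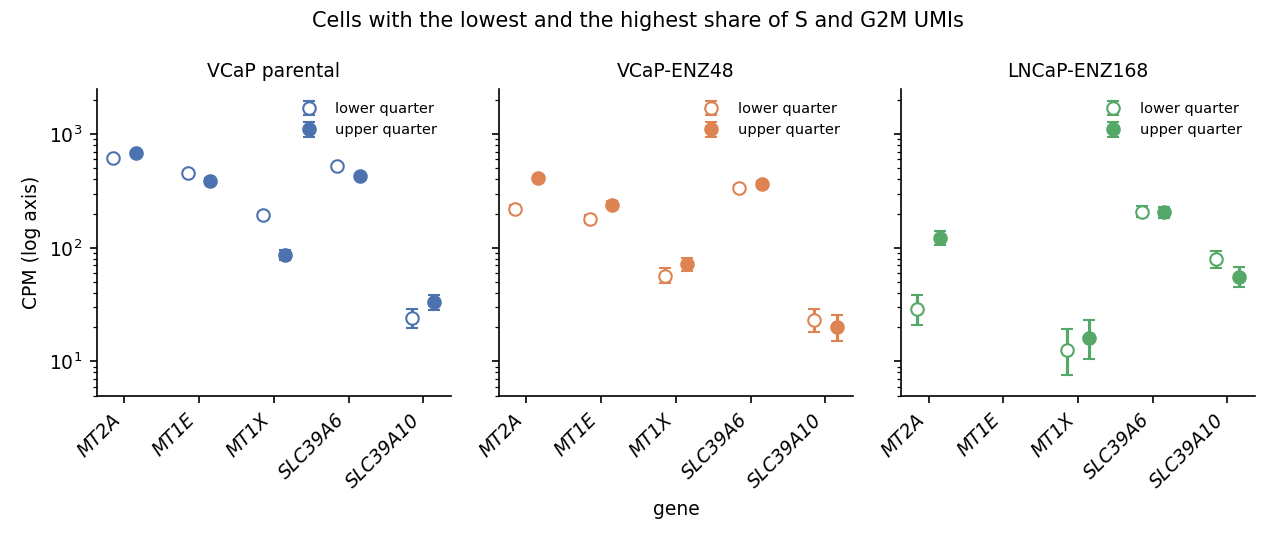
Level in CPM on a log axis (y axis) of 5 genes (x axis) in the 25% of cells with the lowest (open) and the 25% with the highest (filled) share of S and G2M UMIs, 1 panel a library, with 95% Poisson intervals. MT2A is higher in the upper 25% of LNCaP–ENZ168, at 122 against 28.8 CPM, MT1X is lower in the upper 25% of VCaP parental, at 86.5 against 195 CPM, and MT1E has no point in LNCaP–ENZ168, where it had 0 UMIs.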

How the data were processed

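Each library has 1 deposited table of UMI counts, genes by barcodes and not normalized, which the authors made with Drop-seq tools 2.3.0, STAR 2.7.3a and Picard 2.18.22 on GRCh38 with Gencode 33, with 1000 cells expected per library. Each deposited table holds 1000 barcodes, and cell filter thresholds for these libraries are not given in the sources used here. How reads that fit several metallothionein genes were treated is not given in the sources used here. UMIs were summed over kept cells and divided by the library total (CPM). Intervals are 95% Poisson for levels, exact conditional for ratios and exact binomial for shares. With 1 library per group no test was run. Thinning used seed 7. Ratios and intervals were tested on data simulated with Poisson counts, so that check does not cover spread between cells or libraries beyond counting. S and G2M genes came from Seurat 5.3.0, TMM factors from edgeR 4.0.16, and coordinates from Gencode 44. Alternatives covered cell filters, depth, barcode ending, weighting, scaling, pseudocount and minimum. The named genes were all 9, and of the lists those past the fold plus other metallothioneins, zinc transporters, MTF1 and NR3C1 with a mean of 10 CPM or more, and the 5 genes per library with the highest correlation; others named with low counts were chosen after their values were seen. A further gene of the lists is not reported here. The 9 genes, lists and settings were chosen with earlier results of these data known.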

Additional observations from a re-analysis of the deposited data

Results flagged for a closer look

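Rows of 7 metallothionein pseudogenes and related transcripts that the comparisons did not use (MT1CP, MT1DP, MT1JP, MT1P1, MT1P3, MT1XP1 and MT2P1) held 13 UMIs in LNCaP–ENZ168, 153 in VCaP parental and 119 in VCaP–ENZ48, that is, 2.06, 7.84 and 8.32 CPM. They were picked out because such rows were not analysed above although they held more than 3 UMIs. The sum of the 6 metallothioneins in VCaP–ENZ48 was 45.3% of that in VCaP parental, and the sum of these rows was 106%. On the relative log2 scale these rows were at 0.14, with an interval of -0.21 to 0.51. MT1L, a pseudogene given above and not among these 7 rows, stood at 80.8% of the parental level. It had 228 UMIs in VCaP parental and 135 in VCaP–ENZ48, so the 106% holds for these 7 rows only.

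The remaining results were picked out because the upper over the lower 25% of cells by S and G2M share moved in opposite directions in VCaP parental and VCaP–ENZ48. MT1X had log2 ratios of -1.16 and 0.33, MT1E of -0.20 and 0.43, and the summed metallothioneins of -0.11 and 0.64, in that order. MT1X in VCaP–ENZ48 turned to -0.10 with G2M genes alone and to -0.84 for barcodes ending in a base, the direction of VCaP parental. MT1E and the sum kept their signs in both libraries under every setting tried, with the parental sum at -0.034 for barcodes ending in a base. The difference between the libraries was not tested, since each is 1 library, and the upper and lower 25% cover different ranges of the share.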

How the results depend on the processing

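The summed metallothioneins stayed lower in VCaP–ENZ48 than in VCaP parental, main value -1.07, and in LNCaP–ENZ168 than in VCaP–ENZ48, main value -3.34, under all 16 alternatives. In the first comparison they were at -1.16 without barcodes above 3 times the median depth, -0.96 for barcodes ending in a base, -1.21 with cells weighted equally, -1.31 with a minimum of 1 CPM, -0.91 with a minimum of 50 CPM, -0.95 among cells of low S and G2M share and -1.30 among cells of 10000 to 20000 UMIs. In the second they were at -3.21 with a pseudocount of 5, -3.18 with a minimum of 1 CPM, -3.83 among cells of low S and G2M share (48 LNCaP–ENZ168 cells), -3.17 for barcodes ending in N and -2.94 among cells of 10000 to 20000 UMIs. The count of genes lower past the fold in the first comparison was 1 for barcodes ending in a base and 0 with a minimum of 50 CPM, instead of 2, and it was 3, with MT1E at -1.05 to -1.21, without barcodes above 3 times the median depth, with cells weighted equally, with a minimum of 1 CPM and among cells of 10000 to 20000 UMIs. In the second comparison it was 3 instead of 4 with a minimum of 50 CPM, and that of genes higher was 2 with a minimum of 1 CPM, instead of 0. TMM scaling moved the median log2 ratio of all genes by -0.27 and -0.55 in the 2 comparisons, and median-of-ratios by -0.21 and -0.51, and ratios are given relative to it.

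Shares of cells with a metallothionein UMI depend on depth by construction. Taking LNCaP–ENZ168 first, then VCaP parental, then VCaP–ENZ48, they were 7.10%, 63.0% and 35.4% at 1000 UMIs and 23.8%, 94.7% and 74.6% at 4000 UMIs, and for barcodes ending in a base 86.2% in VCaP parental and 58.4% in VCaP–ENZ48. The correlation of MT2A and MT1E at 10000 UMIs was 0.42 in VCaP parental and 0.40 in VCaP–ENZ48. The upper over lower ratio of the sum by S and G2M share was -0.034 in VCaP parental for barcodes ending in a base, and in VCaP–ENZ48 0.51 for the upper and lower 33%, 0.39 with G2M genes only, 0.43 with cells weighted equally and 0.18 for barcodes ending in a base. The cause of these moves was not tested. Of 240 values of single genes between libraries under an alternative, leaving out MT1E in the second comparison because it had 0 UMIs there, 194 stayed within the counting interval and 46 did not. Of values short of the fold, 7 between libraries and 7 between the 25% classes changed sign, and of those past it 0 did. Settings by barcodes ending in N, the band of 10000 to 20000 UMIs, 10000 UMIs, S or G2M genes only, and, for the 25% classes, equal weights and barcode ending were chosen after seeing the data. With 1 library a group, leaving out a replicate was not possible. No paired analysis was possible because there is no second library to pair.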

Other observations

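Copper handling, the other metal that metallothioneins bind, was looked at with a list of 12 genes. Between VCaP parental and VCaP–ENZ48, 9 reached the minimum, with 0 higher and 1 lower, COX17, a carrier of copper to cytochrome c oxidase in mitochondria, where 6.03% of all genes were lower. It had 317 CPM and 136 CPM, a relative log2 ratio of -1.15 (-1.23 to -1.08), close to that of MT2A. ATOX1, the cytosolic copper chaperone, was at -0.06 (-0.12 to 0.01) in the same comparison. In LNCaP–ENZ168 over VCaP–ENZ48, 10 reached the minimum, with 1 higher (the copper pump ATP7A, at 1.13) and 2 lower (COX17, at -1.59, and ATOX1, at -1.15), against 15.2% and 18.6% of all genes.

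Genes that respond to steroids or stress, as metallothioneins do, did not share 1 direction. Of 9 steroid-responsive genes, 4 reached the minimum in VCaP–ENZ48 over VCaP parental, with 0 higher and 1 lower, FKBP5, a co-chaperone induced by steroid hormones, at -1.38 (-1.60 to -1.25). Of 12 metal and oxidative stress genes, 7 reached the minimum, with HSPA1B higher at 1.32 and ATF3 lower at -1.59. Of 11 genes known to respond to cell dissociation, 10 reached the minimum, with 5 higher (EGR1 at 2.75, ZFP36 at 2.11, BTG2 at 1.92, IER2 at 1.54 and JUNB at 1.32) and 1 lower, ATF3, which is on both lists. Short of the fold, JUN was at -0.96 (-1.01 to -0.91), JUND at -0.42, FOS at -0.24 and FOSB at -0.21. Over all genes, 8.97% were higher and 6.03% lower. The part of this response in the metallothionein difference was not tested.

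In LNCaP–ENZ168 over VCaP–ENZ48 the stress list had 5 of 9 genes above the minimum higher and 0 lower, against 15.2% and 18.6% of all genes, with NQO1 at 3.39, ATF3 at 3.31, SLC7A11 at 2.72, DNAJB1 at 1.08 and GADD45A at 1.01, while MT2A, MT1E and MT1X were lower. The steroid-responsive list had 3 of 6 higher and 0 lower, against the same shares, with TSC22D3 at 2.71, KLF9 at 2.24 and DUSP1 at 1.12, and FKBP5 was at -0.40. Of the dissociation list, 10 reached the minimum, with ATF3 higher and BTG2 and ZFP36 lower, at -3.16 and -1.40.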
